A study of Homo sapiens with 70 samples.

Results

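The genes described here are those whose responses could be set side by side in a pair of drug comparisons: Hep3B cells given sorafenib, and Huh7 cells in the group labelled GW3965, each against the vehicle group of its own line. A gene was included if its mean expression over the authors' 2 deposited tables was at least 1 on the log2 CPM scale (CPM, read counts scaled to a common library total), which held for 11481 of 20090 genes. Each gene stands for the transcript that the authors marked as its representative. The pair was selected on measured fold changes: it was chosen because output genes of the ERK kinase pathway fell in both tables, so their fall, and the likeness of the profiles, are given as a description and were not tested. Just inside the limit lay PHF11 and GLB1L at a mean of 1.00 in the authors' deposited tables, and INTU, ZNF783 and LPAR1 lay just outside, also at 1.00 after rounding.

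Hep3B and Huh7 are established lines from human hepatocellular carcinoma, and poly-A RNA was sequenced after 24 h of treatment. The 4 groups used here hold 34 of the 70 libraries of the study: 9 of Hep3B with DMSO, 9 of Hep3B with 2 µM sorafenib, 8 of Huh7 with DMSO and 8 of Huh7 labelled 5 µM GW3965. DMSO, the vehicle, was the control. Sorafenib inhibits RAF kinases and several receptor tyrosine kinases, and GW3965 activates the liver X receptors (LXR), which sense oxidised sterols. The values are the authors' edgeR results, a log2 fold change over DMSO with its p-value and false discovery rate (FDR), and a gene is called higher or lower where that FDR is under 0.05. Values of single libraries were not used here, so the spread between libraries is known only through those p-values and the depth per library is unknown. The labels do not state whether each library had its own culture, so the p-values measure only how far these libraries varied, and that variation may be technical. In RNA from whole cultures, fewer cells of a kind and less RNA per cell cannot be told apart.

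The Huh7 group is called by its label throughout because a known target goes against it. ABCG1, a sterol efflux transporter gene that LXR switches on, stood at 5.99 with GW3965 and at 0.59 with sorafenib in the authors' deposited Hep3B tables. In Huh7 the authors' deposited tables gave ABCG1 as 0.75 in the group labelled GW3965 and 3.82 in the group labelled sorafenib. DUSP6, a phosphatase gene that ERK activity induces, showed the converse, at -1.70 in the authors' deposited Huh7 table labelled GW3965 and -0.02 in the one labelled sorafenib. Cell line and drug label differ together between the tables compared, so any difference below is between these 2 comparisons, and line and drug cannot be told apart. Both lines carried their tissue's markers: 11 of 11 hepatocyte genes were at 1 or more log2 CPM in each of the authors' deposited tables, and the highest were ALB at 13.1 in Hep3B and AFP at 13.2 in Huh7. Endothelial markers reached that level at 0 of 3 genes in either table, blood markers at 2 of 6 in Hep3B and 1 of 6 in Huh7, and mesenchymal genes at 3 of 7 in each. COL1A2, a fibrillar collagen gene of that last list, differed in level, at 1.89 log2 CPM in Hep3B and 6.13 in Huh7 in the authors' deposited tables. Its part in the results was not tested.

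ERK is the last kinase of the RAS, RAF and MEK cascade, by which growth factor receptors instruct cells to divide. Active ERK induces immediate early transcription factors and, with them, phosphatases and Sprouty proteins that shut the cascade down again, so the RNA of these genes is widely read as a gauge of ERK activity. The integrated stress response is a separate programme in which kinases that sense amino acid shortage, misfolded protein or other stress slow translation while the transcription factor ATF4 is made, and ATF4 then switches on genes of amino acid supply. Sterol synthesis in liver cells is governed by the factor SREBP2, which is released when cholesterol runs low, whereas LXR is active when sterols are plentiful.

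The Hep3B response was the wider of the pair, and most genes called in Huh7 were called in the same direction in Hep3B. By the authors' deposited FDR, 5864 of the 11481 genes were called in Hep3B (51.1%), 2653 higher (23.1%) and 3211 lower (28.0%). In Huh7 the same rule called 3545 (30.9%), 1547 higher (13.5%) and 1998 lower (17.4%). Genes called higher in both numbered 913, which is 7.95% of all, 34.4% of the Hep3B calls and 59.0% of the Huh7 calls in that direction. Genes called lower in both numbered 1218, which is 10.6% of all, 37.9% of the Hep3B calls and 61.0% of the Huh7 calls. Opposite calls were fewer, with 79 genes higher in Hep3B and lower in Huh7 (0.688%) and 104 the other way (0.906%). Over all 11481 genes the fold changes had a Pearson r of 0.59 and a Spearman rho of 0.55, a description across genes, which are not independent replicates. That r lay between 0.53 and 0.63 in 4 ranges of expression, and was 0.59 without the genes of the ERK output, DNA replication and mitosis lists. The SD of the fold changes was 0.53 in Hep3B and 0.35 in Huh7, and an orthogonal fit gave 0.52 units of Huh7 change per unit of Hep3B change. The medians were -0.03 and -0.04, and values scaled to a common library total cannot show whether RNA as a whole rose or fell. By expression, the median ran in Hep3B from 0.14 among genes of 1 to under 3 log2 CPM to -0.18 among those of 7 or more, and in Huh7 from 0.03 to -0.07.

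**Figure D1:**
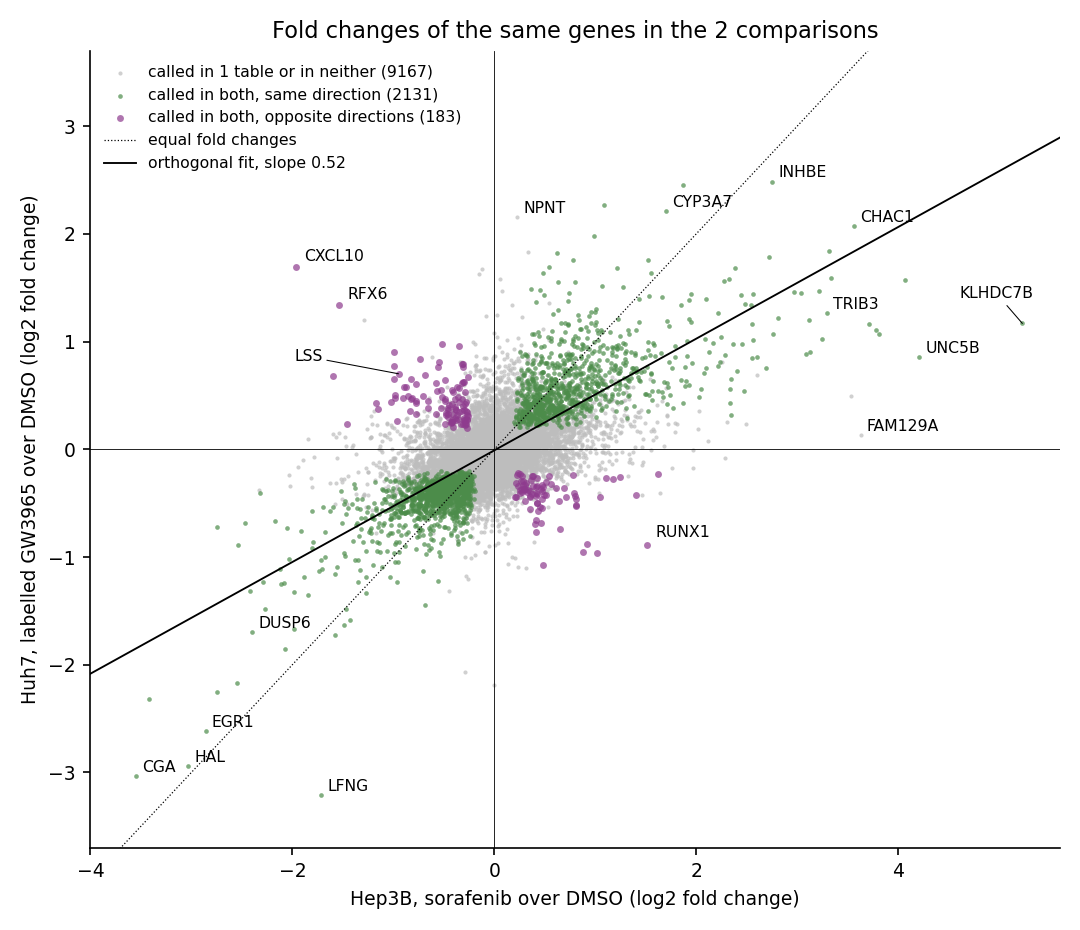
Log2 fold change over DMSO of 11481 genes in Hep3B with sorafenib (horizontal axis) and in Huh7 labelled GW3965 (vertical axis). Points are genes coloured by the authors' calls, the dotted line marks equal change and the solid line the orthogonal fit; the cloud runs along a line flatter than equality, and 183 genes were called in opposite directions.

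An approximate standard error (SE), worked out from each fold change and its p-value, had a median of 0.116 in Hep3B and 0.110 in Huh7. A lower limit set by genes of like expression shapes those medians, and for single genes the SEs could lie far apart, at 0.11 in Hep3B and 0.40 in Huh7 for INHBE and at 0.36 and 0.12 for FAM129A. To say that a gene responded differently, the difference of its fold changes (Hep3B minus Huh7) was set against its own SE, the root of the sum of the squared SEs, as a 2-sided z test with Benjamini-Hochberg adjustment over all 20090 genes. By this test 1904 of the 11481 genes differed (16.6%), 956 with the higher value in Hep3B (8.33%) and 948 with the lower (8.26%). Over all genes the Hep3B changes were the wider, though not in every list (ribosome biogenesis had medians of -0.26 in Hep3B and -0.50 in Huh7). The test was therefore repeated after multiplying the Hep3B changes by 0.52, which left 1278 genes (11.1%). Of these, 623 lay above the Huh7 value (5.43% of all genes) and 655 below it (5.71%). Of 1889 genes called lower in Hep3B and not called in Huh7, 555 differed by the first test (29.4%), and 1440 had a Huh7 value below 0. Of 1661 called higher in Hep3B and not in Huh7, 569 differed (34.3%), and 1171 had a Huh7 value above 0. Most genes called in 1 table alone thus did not pass the test of the difference.

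ERK output genes fell in both comparisons, with EGR1 the lowest of the list in each. Of the 17 listed genes that met the expression limit (8 lay under it), 16 were called lower in Hep3B and 12 in Huh7, and 0 were called higher in either, in the authors' deposited tables. Their median fold change was -1.21 in Hep3B and -0.995 in Huh7. EGR1, an immediate early transcription factor gene, stood at -2.86 ± 0.16 (approximate SE, here and below) in Hep3B and -2.61 ± 0.30 in Huh7 in the authors' deposited tables. DUSP6 stood at -2.40 ± 0.12 and -1.70 ± 0.25. SPRY4, whose protein restrains receptor signalling to RAS, stood at -1.99 ± 0.19 and -1.67 ± 0.36 in the authors' deposited tables. ETV4, an ETS family transcription factor gene, stood at -2.08 ± 0.16 and -1.24 ± 0.28. These genes chose the pair, so the counts are a description. The exception in both tables was PHLDA1, at -0.14 and 0.42, with no call in either of the authors' deposited tables. CCND1, the cyclin D1 gene that carries mitogenic signals into the cell cycle, was called lower in Hep3B (-0.91 ± 0.14) and not in Huh7 (-0.17 ± 0.12) in the authors' deposited tables.

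Components of the cascade itself moved little. Of 20 genes of RAS, RAF, MEK, ERK and their adaptors, 3 were called higher and 4 lower in Hep3B, and 0 were called in either direction in Huh7 (2 above and 3 below 0 at an unadjusted p under 0.05), by edgeR in the authors' deposited tables. The ERK1 gene MAPK3 was at -0.26 in Hep3B and 0.22 in Huh7, and SHC1, an adaptor that links receptors to RAS, was at -0.77 and -0.21, and these 2 genes were the ones that differed between the comparisons. Receptor tyrosine kinase genes were mixed: of 17, 3 were called higher and 9 lower in Hep3B, and 5 higher and 5 lower in Huh7. The largest falls in both were those of the platelet-derived growth factor receptors PDGFRA (-1.91 and -0.76) and PDGFRB (-1.67 and -0.77) in the authors' deposited tables. Both of these and FGFR1 (-1.09 and -0.46) fell further in Hep3B by the test of the difference. In that test 6 of the 17 had the lower value in Hep3B and 0 the higher, whether the gene rose or fell. After scaling, 1 of the 17 lay below the Huh7 value and 1 above it. ERBB2, a receptor of the EGF receptor family, was called higher in both, at 0.33 in Hep3B and 0.80 in Huh7 in the authors' deposited tables, and there the Huh7 change was the larger.

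The 10 genes that fell most in both tables, ranked by the smaller of their 2 changes, were CGA, HAL, EGR1, SLC6A14, CCR6, CCL20, LYZ, LFNG, DUSP6 and SPRY4. CGA, which encodes the alpha subunit shared by the pituitary and placental glycoprotein hormones, stood at -3.55 ± 0.35 in Hep3B and -3.03 ± 0.20 in Huh7 in the authors' deposited tables. HAL, the gene of histidine ammonia-lyase, the first enzyme of histidine breakdown, fell by 3.03 ± 0.14 and by 2.94 ± 0.38 in the authors' deposited tables. The chemokine gene CCL20 and its receptor gene CCR6 fell together, CCL20 to -2.55 ± 0.14 and -2.17 ± 0.46 and CCR6 to -2.75 ± 0.23 and -2.26 ± 0.29, in the authors' deposited tables. SLC6A14, an amino acid transporter gene, stood at -3.42 ± 0.16 and -2.32 ± 0.20, and LYZ, the lysozyme gene, at -2.07 ± 0.26 and -1.85 ± 0.18. LFNG, whose enzyme modifies Notch receptors, fell further in Huh7, at -1.72 ± 0.21 against -3.21 ± 0.27 in the authors' deposited tables (difference 1.496, adjusted p = 0.000391 by the approximate test). SLC6A14 and LFNG were the 2 of the 10 that differed between the comparisons. HAL and SLC6A14 in Huh7 and CCR6 in Hep3B were weakly expressed, at 0.83, 0.81 and 0.84 log2 CPM in the authors' deposited tables. Ranking by the smaller change selects for a large Huh7 change. Scaled differences of these 10 genes and of the 10 that follow are therefore listed only under processing, and not read as results.

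The 10 genes that rose most in both were INHBE, CHAC1, TMEM150B, AKNA, SH3BP2, CYP3A7, UNC93A, STC2, RAB3IL1 and LAMP3. INHBE, an activin subunit gene that liver cells secrete, stood at 2.75 ± 0.11 in Hep3B and 2.49 ± 0.40 in Huh7 in the authors' deposited tables, a difference of 0.27 ± 0.42 that did not pass the test. CYP3A7, the fetal liver member of the CYP3A drug-metabolising family, stood at 1.70 ± 0.22 and 2.22 ± 0.27. Its family members resemble each other closely in sequence, so its reads may not be cleanly separated from theirs. CHAC1, which encodes an enzyme that degrades glutathione, stood at 3.56 ± 0.10 and 2.07 ± 0.29 in the authors' deposited tables, and AKNA, a DNA-binding protein gene, at 3.32 ± 0.18 and 1.84 ± 0.45. LAMP3, a lysosomal membrane protein gene, stood at 4.07 ± 0.29 and 1.57 ± 0.49. Of these 10, CHAC1, AKNA, STC2 and LAMP3 rose further in Hep3B by the test of the difference. TMEM150B and LAMP3 were weakly expressed in Huh7, at 0.61 and 0.71 log2 CPM in the authors' deposited tables.

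Regulators of the integrated stress response rose in both lines, and further in Hep3B. All 16 listed regulators were called higher in Hep3B, and in Huh7 12 were called higher and 1, ATF5, lower, in the authors' deposited tables. Their median fold change was 2.07 in Hep3B and 0.98 in Huh7. ATF3, a stress-induced transcription factor gene, stood at 3.12 ± 0.21 and 1.20 ± 0.18, and TRIB3, a pseudokinase gene that feeds back on ATF4, at 3.29 ± 0.13 and 1.27 ± 0.22 in the authors' deposited tables. DDIT3, which encodes the factor CHOP, stood at 2.48 ± 0.17 and 1.35 ± 0.35. DDIT4, an inhibitor of the growth kinase mTORC1, stood at 2.54 and 1.34 in the authors' deposited tables. By the test of the difference 14 of the 16 were higher in Hep3B and 0 lower, against 8.33% and 8.26% of all genes. After scaling, 4 remained above the Huh7 value (ATF5, PPP1R15A, XPOT and EIF4EBP1) and KLHL24 lay below it.

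Most genes of secreted stress hormones and amino acid supply that met the expression limit were called higher in Hep3B. Of 10 listed hormone genes, 5 met the limit and 5 lay under it. Of the 5 that met it, 5 were called higher in Hep3B and 3 in Huh7, beside 23.1% and 13.5% of all genes. STC2 stood at 3.34 and 1.59 and ADM2 at 2.97 and 1.46 in the authors' deposited tables. GDF15, the stress hormone that acts on appetite centres of the brain, differed between the comparisons, at 0.99 in Hep3B and 0.00 in Huh7 in the authors' deposited tables. Of 15 amino acid synthesis genes, 12 were called higher in Hep3B and 9 in Huh7, and those 9 were among the 12, in the authors' deposited tables. The other 3 (ALDH18A1, SHMT1 and MTHFD1) were called lower in Hep3B, and MTHFD1 in Huh7 too. Tested for the difference, 10 of the 15 were higher in Hep3B and 1, ALDH18A1, lower, and 4 and 0 after scaling. ASNS, the asparagine synthetase gene, stood at 2.45 ± 0.11 and 1.43 ± 0.27, PHGDH, the entry enzyme of serine synthesis, at 2.21 and 0.78, and ALDH1L2, a mitochondrial folate enzyme, at 3.25 and 1.02 in the authors' deposited tables. Of 14 amino acid transporter genes, 9 were called higher and 1 lower in Hep3B, and in Huh7 7 were higher and 4 lower. SLC7A11, the cystine importer, stood at 2.55 and 1.17, SLC6A9, a glycine transporter, at 3.13 and 0.90, and SLC7A5, an importer of large neutral amino acids, at 2.33 and 0.43 in the authors' deposited tables. SLC1A5, a glutamine transporter, was called in opposite directions, at 1.24 and -0.26.

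The cytosolic tRNA synthetases, which load amino acids onto their tRNAs, split within Huh7. In Hep3B 12 of 20 were called higher and 3 lower, and in Huh7 3 were called higher and 8 lower, in the authors' deposited tables. AARS (1.40 in Hep3B and 0.72 in Huh7), SARS (1.56 and 0.54) and CARS (0.52 in Huh7) were the 3 called higher in both of the authors' deposited tables. HARS, RARS and VARS were called lower in both. WARS, for tryptophan, was called in opposite directions, at 1.62 ± 0.10 and -0.23 ± 0.10 in the authors' deposited tables. By the test of the difference 13 of the 20 were higher in Hep3B and 0 lower, and 6 kept that call after scaling.

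**Figure D2:**
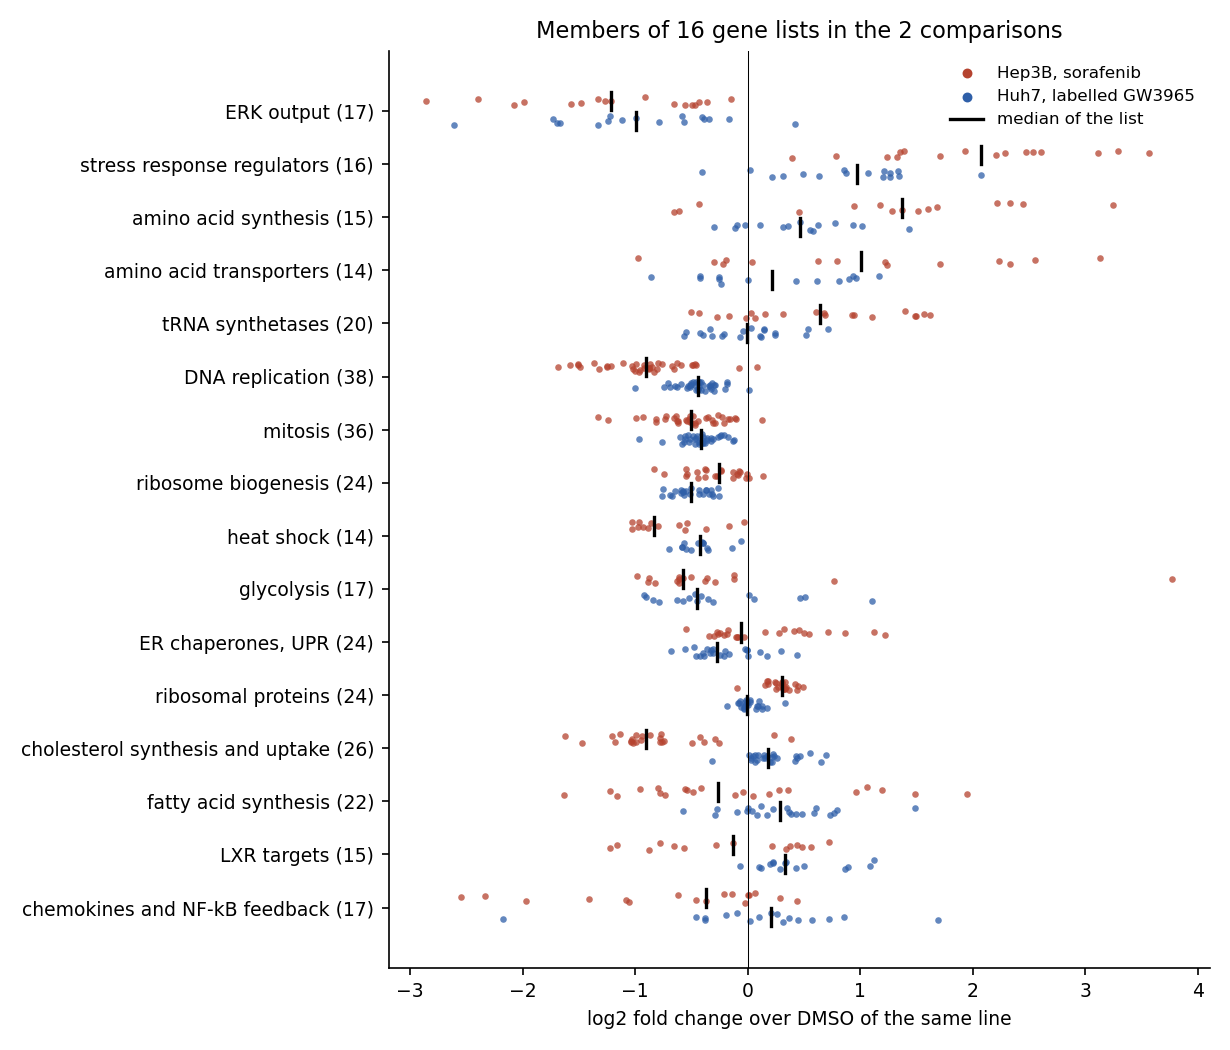
Log2 fold change over DMSO (horizontal axis) of the members of 16 gene lists, with 1 point per gene, red for Hep3B with sorafenib and blue for Huh7 labelled GW3965, the bar marking the list's median and the number of genes in parentheses. Stress regulators lie right of 0 and replication and mitosis genes left of 0 in both colours, whereas the cholesterol list has a median of -0.90 in Hep3B and 0.18 in Huh7.

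The synthetase genes were also compared by promoter sequence. ATF4 acts with CEBP family partners at a composite element, searched here as TGATGNAAN on either strand from 250 bases before to 50 after each transcription start. RefSeq windows on GRCh38.p14 were found for 9424 of the 11481 genes (11453 matched a RefSeq gene), and a gene holds a motif if any of its windows does. The composite was present in 7 of 16 synthetase genes with a window (43.8%), 5 of 12 transporters (41.7%), 4 of 14 stress regulators (28.6%) and 2 of 10 synthesis genes, against 2.65% of the 9424 genes and 3.61% of all 35116 windows. All 7 synthetase genes with it (AARS, CARS, GARS, IARS, MARS, NARS and TARS) were called higher in Hep3B, with a median of 0.95, and 2 were called higher in Huh7, with a median of 0.15, in the authors' deposited tables. Of the 9 without it, 3 were called higher in Hep3B, with a median of 0.03, and in Huh7 1 was higher and 6 lower, with a median of -0.23. A match is a run of letters in this window and not evidence of binding. Stretches of 6 of these promoters are shown for comparison, from genes called higher in Hep3B, with the composite in capitals on whichever strand it lies; the first 4 were called higher in Huh7 too, and GARS and IARS were not called there. They lie at chr15:40953226-40953304 (CHAC1, plus strand), chr1:212565181-212565259 (ATF3, plus strand), chr7:97872433-97872511 (ASNS, minus strand), chr16:70289651-70289729 (AARS, minus strand), chr7:30594809-30594877 (GARS, plus strand) and chr9:92293698-92293746 (IARS, minus strand) of GRCh38.p14, and each is read 5′ to 3′ along its gene.
CHAC1: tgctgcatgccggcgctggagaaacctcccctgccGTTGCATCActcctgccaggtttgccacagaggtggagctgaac
ATF3: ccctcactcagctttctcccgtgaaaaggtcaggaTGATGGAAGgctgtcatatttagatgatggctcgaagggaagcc
ASNS: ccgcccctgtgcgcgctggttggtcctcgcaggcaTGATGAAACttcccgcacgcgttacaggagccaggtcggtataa
AARS: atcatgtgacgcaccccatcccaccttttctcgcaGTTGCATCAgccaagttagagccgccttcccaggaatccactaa
GARS: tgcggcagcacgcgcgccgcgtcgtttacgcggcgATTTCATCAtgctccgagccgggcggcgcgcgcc
IARS: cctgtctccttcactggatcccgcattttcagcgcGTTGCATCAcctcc

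In CHAC1, AARS, IARS and GARS the capitals read as the reverse complement of the motif, and CHAC1, AARS and IARS share the same 9 letters. In ASNS the motif runs from position -68 to -60 relative to the start. For CHAC1 the match runs from -210 to -202. Near-identical composites were thus present in genes whose Huh7 fold changes ran from 2.07 (CHAC1) to -0.07 (IARS) in the authors' deposited tables.

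DNA replication genes fell in both lines and further in Hep3B, and the medians of the mitosis genes lay closer together. Of 38 replication genes, 36 were called lower in Hep3B and 23 in Huh7, with medians of -0.90 and -0.44, and 0 were called higher in either of the authors' deposited tables. RRM2, a ribonucleotide reductase subunit gene that supplies DNA precursors, stood at -1.68 ± 0.11 and -1.001 ± 0.26 in the authors' deposited tables. CCNE1, which encodes cyclin E1 and drives entry into S phase, stood at -1.51 and -0.69, and UHRF1, which helps copy DNA methylation, at -1.58 and -0.50. At an FDR under 0.01 the Huh7 count was 11 of 38. By the test of the difference 12 of the 38 were lower in Hep3B. After scaling the approximate test called 0, with 1 above and 0 below at an unadjusted p under 0.05. Of 36 mitosis genes, 30 were called lower in Hep3B and 31 in Huh7, with medians of -0.50 and -0.41, and 28 were called lower in both of the authors' deposited tables. MKI67, the gene of the proliferation marker Ki-67, stood at -1.33 ± 0.22 and -0.56 ± 0.18, ASPM, a spindle pole protein gene, at -1.24 and -0.76, and CENPE, a kinetochore motor gene, at -0.99 and -0.96 in the authors' deposited tables. NUSAP1, a spindle protein gene, was the 1 mitosis gene that differed by the first test, at -0.81 and -0.31. Once the Hep3B changes were scaled, 3 of the 36 lay above the Huh7 value and 0 below it. At an unadjusted p under 0.05 by that scaled approximate test, 10 lay above and 0 below. Among 14 G1 regulators 2 were called higher and 7 lower in Hep3B, and 1 higher and 1 lower in Huh7. The gene called lower in both, the kinase gene CDK2, stood at -0.92 and -0.39 in the authors' deposited tables. CDKN1C, an inhibitor of cyclin-dependent kinases, was called higher in both, at 0.64 and 0.97.

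The 2 cell cycle lists also held different promoter letters. E2F factors, which switch on replication genes, were searched as TTTCCCGC or TTTGGCGC, and 17 of 32 replication genes with a window held it (53.1%), against 4.70% of the 9424 genes and 2.27% of all windows. The cell cycle homology element of mitotic genes was searched as TTTGAA, and 21 of 30 mitosis genes held it, against 13.6% of the 9424 genes and 15.2% of all windows. Replication genes with and without the E2F letters each had a median of -0.88 in Hep3B and -0.43 in Huh7 in the authors' deposited tables. Of the 17 with the letters, 16 were called lower in Hep3B and 7 in Huh7, and of the 15 without, 14 and 11; these sets were not tested against each other. For mitosis genes the medians were -0.47 with the element and -0.54 without it in Hep3B, and -0.41 and -0.43 in Huh7. The stretches below are from 2 replication genes and 2 mitosis genes that fell in Hep3B and show the letters in capitals, on either strand. They lie at chr19:4909452-4909500 (UHRF1, plus strand), chr1:23531234-23531310 (E2F2, minus strand), chr1:197146742-197146817 (ASPM, minus strand) and chr10:128126430-128126505 (MKI67, minus strand) of GRCh38.p14, from RefSeq.
UHRF1: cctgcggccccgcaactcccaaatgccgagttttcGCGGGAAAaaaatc
E2F2: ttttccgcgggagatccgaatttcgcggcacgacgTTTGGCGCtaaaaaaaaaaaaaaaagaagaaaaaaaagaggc
ASPM: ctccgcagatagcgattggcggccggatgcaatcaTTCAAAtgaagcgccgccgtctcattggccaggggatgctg
MKI67: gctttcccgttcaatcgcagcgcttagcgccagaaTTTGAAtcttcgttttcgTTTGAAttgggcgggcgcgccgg

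MKI67 holds the mitotic element in 2 places of this stretch and ASPM in 1. EGR1 was the 1 ERK output gene of 11 with a window to hold the letters of the serum response element, in capitals below, which 6 of the 9424 genes (0.0637%) and 0.0342% of all windows held. The EGR1 stretch at chr5:138465339-138465418 (plus strand, GRCh38.p14, RefSeq) is shown because EGR1 fell furthest of that list in both lines.
EGR1: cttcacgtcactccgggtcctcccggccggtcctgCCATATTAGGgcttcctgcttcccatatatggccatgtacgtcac

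**Figure D3:**
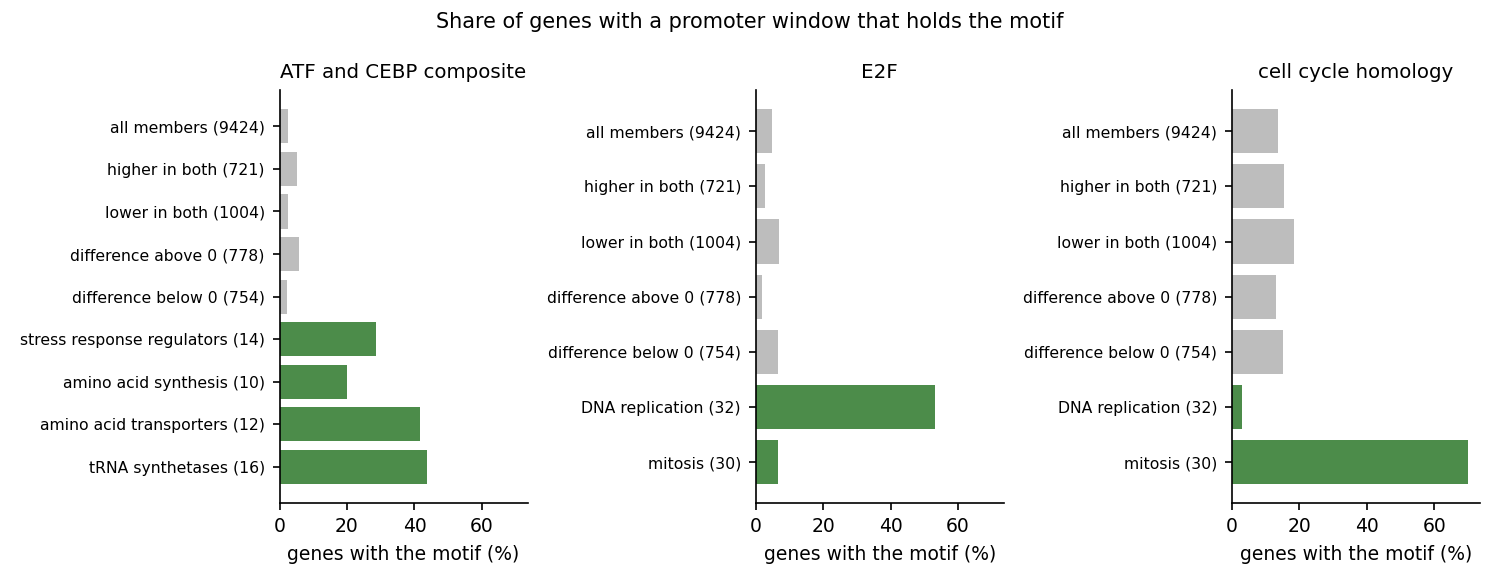
Share of genes (%, horizontal axis) with a promoter window holding the ATF and CEBP composite, the E2F letters or the cell cycle homology element, with the number of genes that have a window in parentheses. Grey bars are all genes and the sets called in both tables or differing between them, and green bars are gene lists; the longest bar of the 3 panels is mitosis with the cell cycle homology element, 21 of 30 genes.

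Across the sets called in both tables the shares differed less. The composite was in 5.13% of the genes higher in both and 2.59% of those lower in both, and in 5.78% of genes with the higher value in Hep3B against 2.12% of those with the lower. ETS family letters, searched as CCGGAAGT, were in 13.4% of genes lower in both and 3.05% of those higher in both, against 10.8% of the 9424 genes and 4.14% of all windows. These shares were not tested.

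Other groups fell together in both lines. Heat shock genes, which encode chaperones of the cytosol, were called lower at 12 of 14 in Hep3B and 10 of 14 in Huh7 in the authors' deposited tables, and their medians were -0.83 and -0.42. HSPA8, the constitutive HSP70 gene, stood at -0.93 ± 0.13 and -0.58 ± 0.13, and HSP90AA1 at -0.88 and -0.70 in the authors' deposited tables. HSPA1A and HSPA1B are near-identical copies, so their separate values (-0.96 and -1.03 in Hep3B, -0.36 and -0.44 in Huh7) are uncertain. The approximate test called 0 of the 14 as differing between the comparisons, against 16.6% of all genes, and 5 of them were lower in Hep3B at an unadjusted p under 0.05. Glycolysis genes were called lower at 13 of 17 in Hep3B and 11 of 17 in Huh7 (7 at an FDR under 0.01), and higher at 2 and 3, with LDHA, the lactate dehydrogenase gene, at -0.63 and -0.92 and PKM2, a pyruvate kinase gene, at -0.88 and -0.90 in the authors' deposited tables. HKDC1, a hexokinase gene, went the other way, at 3.78 ± 0.21 and 1.10 ± 0.37. The glucose transporter gene SLC2A2 of hepatocytes was called lower in Hep3B (-0.98) and higher in Huh7 (0.51) in the authors' deposited tables.

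Ribosome biogenesis genes, which build new ribosomes in the nucleolus, fell throughout the list in Huh7. All 24 were called lower there, with a median of -0.50, and 14 were in Hep3B, with a median of -0.26, in the authors' deposited tables. NCL, the nucleolin gene, stood at -0.83 and -0.55, and UTP20, a factor of small subunit processing, at -0.74 and -0.75 in the authors' deposited tables. RRP9 and RRP12 also act in rRNA maturation, and they stood near 0 in Hep3B (-0.09 and -0.07) and at -0.69 and -0.65 in Huh7 in the authors' deposited tables. By the test of the difference 4 of the 24 fell further in Huh7 (RRP9, RRP12, UTP15 and WDR43), and 11 did after scaling. Ribosomal protein genes, whose many pseudogenes can take some of their reads, were called higher at 13 of 24 in Hep3B (6 at an FDR under 0.01) and 1 of 24 in Huh7 in the authors' deposited tables, and their medians were 0.31 and -0.01. RPL5 was the 1 gene of the 24 whose change differed at the adjusted threshold, at 0.44 and -0.02. The value was higher in Hep3B for 23 of the 24. At an unadjusted p under 0.05 by the approximate test, 9 were higher there and 0 lower. With scaling 0 were called. ER chaperone and unfolded protein genes were called lower at 11 of 24 in Huh7 (7 at an FDR under 0.01), and in Hep3B 9 were called higher and 6 lower (2 at that FDR). Among all genes, 17.4% were called lower in Huh7, and 23.1% higher and 28.0% lower in Hep3B. The test of the difference put 8 of the 24 higher in Hep3B and 0 lower, against 8.33% and 8.26% of all genes. With scaling 5 were higher and 0 lower. HERPUD1, a factor of ER-associated degradation, was the 1 gene called higher in both, at 1.22 and 0.44 in the authors' deposited tables, and SDF2L1, an ER chaperone partner, fell in both, at -0.35 and -0.68. XBP1 and HYOU1, both induced by ER stress, were called in opposite directions, at 0.55 and 0.32 in Hep3B and -0.25 and -0.40 in Huh7 in the authors' deposited tables.

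Cholesterol synthesis genes fell in Hep3B, and in Huh7 the calls were upward. Of 26 genes of sterol synthesis and uptake, 23 were called lower and 2 higher in Hep3B, and in Huh7 0 were called lower and 7 higher, in the authors' deposited tables. The medians were -0.90 and 0.18, and 25 of the 26 had a Huh7 value above 0. HMGCS1, an early enzyme of the mevalonate pathway, stood at -1.21 ± 0.12 in Hep3B and 0.23 ± 0.14 in Huh7 in the authors' deposited tables. Further down the pathway MVD stood at -0.99 ± 0.16 and 0.65 ± 0.19 and LSS, the lanosterol synthase gene, at -0.95 ± 0.14 and 0.70 ± 0.10 in the authors' deposited tables. INSIG1, which holds the SREBP complex in the ER, stood at -1.47 ± 0.15 and 0.03 ± 0.10, and STARD4, a cholesterol carrier, at -1.13 and 0.03. Those called in opposite directions included MVK, MVD, LSS, TM7SF2, DHCR7 and SREBF2. By the test of the difference 23 of the 26 had the lower value in Hep3B and 0 the higher, against 8.26% and 8.33% of all genes, and 23 were lower after scaling too. PMVK and GGPS1 were among the 3 that did not pass.

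SREBF2, the gene of SREBP2 itself, was the 1 gene of 19 with a window to hold the letters of a sterol response element, in capitals below, which 3 of the 9424 genes (0.0318%) and 0.0456% of all windows held. SREBF2 was called in opposite directions, at -0.29 in Hep3B and 0.42 in Huh7 in the authors' deposited tables, and its stretch at chr22:41832936-41833015 (plus strand, GRCh38.p14, RefSeq) is shown.
SREBF2: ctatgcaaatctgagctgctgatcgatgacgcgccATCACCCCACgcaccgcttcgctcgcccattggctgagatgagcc

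**Figure D4:**
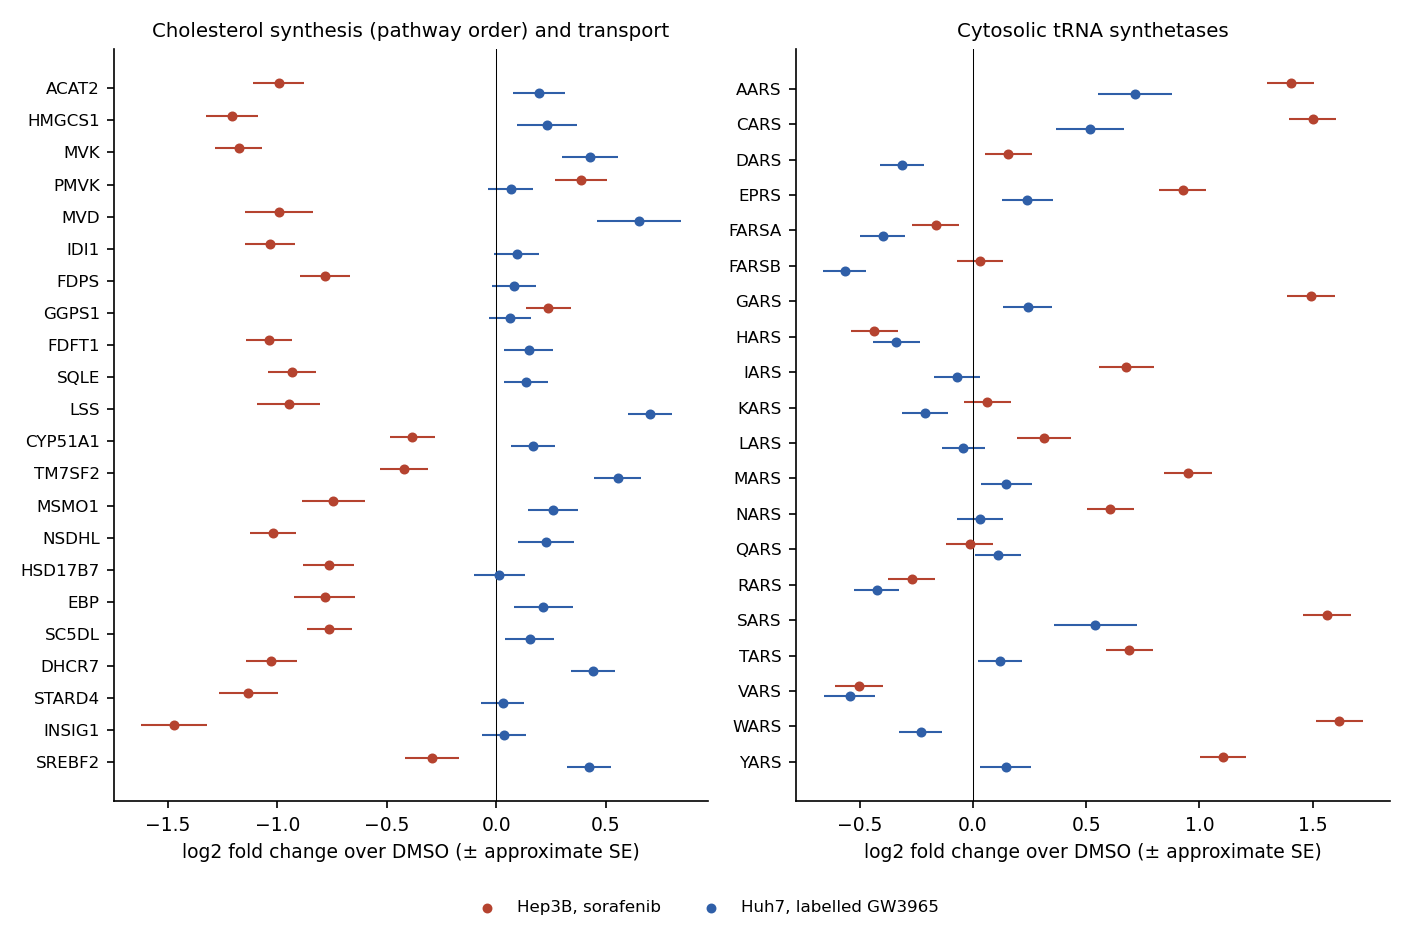
Log2 fold change over DMSO (horizontal axes), with bars of 1 approximate SE, of 22 of the 26 cholesterol genes, synthesis in pathway order and then transport and regulation (left) and of 20 cytosolic tRNA synthetases (right); red is Hep3B with sorafenib and blue is Huh7 labelled GW3965. In the left panel 20 of 22 red points lie left of their blue partners, and in the right panel 18 of 20 lie to the right.

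Fatty acid synthesis genes and LXR targets were mixed in Hep3B and mostly upward in Huh7 where called. Of 22 fatty acid synthesis genes, 7 were called higher and 11 lower in Hep3B, and 11 higher and 1 lower in Huh7, in the authors' deposited tables. FASN, the fatty acid synthase gene, stood at -1.22 ± 0.15 and 0.12 ± 0.14, and SCD, which makes monounsaturated fatty acids, at -1.16 ± 0.14 and 0.23 ± 0.10 in the authors' deposited tables. ACSL3, an acyl-CoA synthetase gene, was called lower in both, at -1.63 and -0.57. DGAT2, for triglyceride synthesis, at 1.95 and 0.80, and ACACB, an acetyl-CoA carboxylase, at 1.19 and 0.77, were called higher in both of the authors' deposited tables. By the test of the difference 11 of the 22 were lower in Hep3B and 3 higher, and 10 and 1 after scaling. Of 15 LXR targets, a list that also counts FASN, 4 were called higher and 6 lower in Hep3B, and 7 higher and 0 lower in Huh7. Among all genes, 23.1% were called higher and 28.0% lower in Hep3B, and 13.5% and 17.4% in Huh7. The test of the difference put 8 of the 15 lower in Hep3B and 0 higher, against 8.26% and 8.33% of all genes. With scaling 10 were lower and 0 higher, against 5.71% and 5.43%. APOE, the lipid carrier gene, stood at 0.56 and 0.89, and MLXIPL, a carbohydrate-responsive factor gene, at 0.44 and 1.09 in the authors' deposited tables, called higher in both. ABCA1, the cholesterol efflux pump gene, was not called in either, at -0.28 ± 0.15 and 0.28 ± 0.12 in the authors' deposited tables, although the difference between them passed (adjusted p = 0.0362 by the approximate test). SREBF1, an LXR target that drives lipogenesis, stood at -0.88 ± 0.10 and -0.07 ± 0.10.

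For the sterol and lipid genes HMGCS1, FASN and LSS the other comparisons of each line, which share its DMSO libraries, gave the following values. HMGCS1 stood at 0.83 with GW3965 and -0.36 with both drugs in the authors' deposited Hep3B tables, and at 0.21 in the group labelled sorafenib and 0.43 with both in the Huh7 tables. FASN stood at 2.00 and 0.39 in the Hep3B tables of the authors' deposit, and at 1.39 and 1.45 in those of Huh7. LSS stood at 1.01 and -1.32 in the authors' deposited Hep3B tables and at 0.70 and 0.89 in those of Huh7. For these 3 genes the sorafenib-alone value in Hep3B was below 0, and the 3 Huh7 values were above 0. Of those Huh7 values, HMGCS1 in both single-drug groups and FASN in the group labelled GW3965 were not called. SREBF1 did not share the pattern, at -0.07 in Huh7 labelled GW3965, also not called.

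Chemokine and NF-kB genes had lower values in Hep3B throughout the list. Of 17, 9 were called lower and 1 higher in Hep3B, and 3 lower and 3 higher in Huh7, in the authors' deposited tables. The shares of all genes were 28.0% lower and 23.1% higher in Hep3B, and 17.4% and 13.5% in Huh7. The Huh7 counts lay near those shares. All 17 had the lower value in Hep3B, and 8 of them passed the test of the difference, against 8.26% of all genes. That count fell to 3 after scaling. CXCL10, an interferon-induced chemokine gene that draws T cells, was called in opposite directions, at -1.97 ± 0.26 and 1.69 ± 0.48 in the authors' deposited tables. CXCL5, a neutrophil chemokine gene, stood at -2.33 ± 0.12 and -0.38 ± 0.41, with no call in Huh7. ICAM1, an adhesion molecule that NF-kB induces, fell in both, at -1.08 and -0.46 in the authors' deposited tables.

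The 10 genes whose Hep3B value exceeded the Huh7 value by most were KLHDC7B, FAM129A, UNC5B, NEBL, PPP1R14A, HKDC1, MEF2B, LAMP3, RUNX1 and MFAP4, with differences from 4.06 to 2.37. KLHDC7B, a kelch repeat protein gene, stood at 5.23 ± 0.29 in Hep3B and 1.17 ± 0.36 in Huh7, and UNC5B, a netrin receptor gene, at 4.21 ± 0.33 and 0.85 ± 0.23 in the authors' deposited tables. FAM129A, known as Niban and induced under stress, stood at 3.63 ± 0.36 and 0.13 ± 0.12. These genes and the next 10 were ranked by the difference itself, so the sizes are a description. The 10 with the most negative differences were CXCL10, RFX6, EDN1, GABRA2, SLC6A19, CXCL5, ZNF512, NPNT, LOC401022 and RND1, from -3.66 to -1.89. NPNT, the gene of the matrix protein nephronectin, was not called in Hep3B, at 0.22 ± 0.13, and rose by 2.16 ± 0.26 in Huh7 in the authors' deposited tables. SLC6A19, a neutral amino acid transporter gene, fell in both, to -2.75 ± 0.22 and -0.73 ± 0.12. EDN1, the endothelin 1 gene, stood at -1.29 ± 0.29 and 1.20 ± 0.48 in the authors' deposited tables and missed the call in Huh7 (edgeR FDR 0.0551). Of these 20 genes 11 had a mean under 1 log2 CPM in 1 of the tables, so part of each such contrast rests on a weakly expressed gene.

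**Figure D5:**
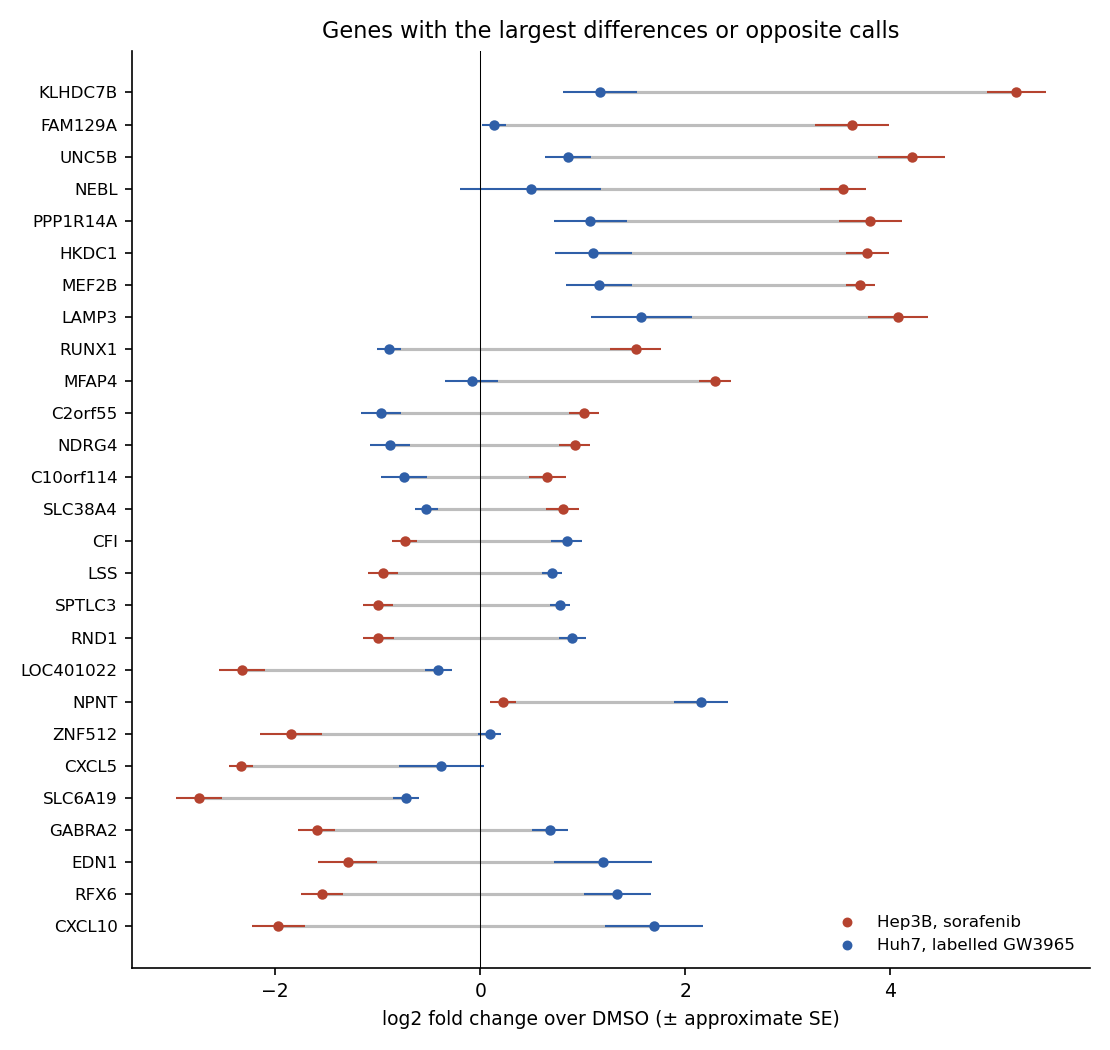
Log2 fold change over DMSO (horizontal axis), with bars of 1 approximate SE, of the 20 genes with the largest differences and of others called in opposite directions, ordered by the difference. Red is Hep3B with sorafenib, blue is Huh7 labelled GW3965 and the grey line joins the pair; KLHDC7B at the top is at 5.23 and 1.17, and CXCL10 at the bottom is at -1.97 and 1.69.

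Hepatocyte functions were mixed in both lines. Of 23 secreted liver protein genes, 8 were called higher and 7 lower in Hep3B, and 11 higher and 4 lower in Huh7, in the authors' deposited tables. APOC3, an apolipoprotein gene that slows triglyceride clearance, rose in both, at 1.71 and 1.20, and APOB, the structural protein of very-low-density lipoprotein, fell in both, at -1.09 and -0.68, in the authors' deposited tables. TTR, the transthyretin gene, was alike at -0.77 and -0.81. HP, the haptoglobin gene, stood at -1.26 and 0.19, and ORM1, an acute phase gene with the near-identical copy ORM2, at 1.47 and -0.12 in the authors' deposited tables, and both differed between the comparisons. ALB, the albumin gene, stood at -0.20 ± 0.13 and 0.35 ± 0.10, and AFP, the fetal counterpart of albumin, at -0.90 ± 0.22 and -0.13 ± 0.10 in the authors' deposited tables. Among 17 liver transcription factor genes, NR0B2, a repressor of bile acid synthesis, fell in both, at -1.13 and -0.95, and HNF4A was not called in either, at -0.07 and 0.27, in the authors' deposited tables. In the urea cycle list ASS1, which joins citrulline and aspartate, rose in both, at 2.28 and 1.56, and ARG1, the arginase gene, fell in both, at -1.98 and -1.33, in the authors' deposited tables.

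Fatty acid oxidation genes gave 6 calls higher and 5 lower in Hep3B, and 6 higher and 3 lower in Huh7, among 20. Of all genes, 51.1% were called in Hep3B and 30.9% in Huh7. PPARGC1A, a coactivator of mitochondrial genes, was at 1.24 and 1.05, and PPARA, the receptor that switches this pathway on, at 0.88 and 0.71 in the authors' deposited tables, called higher in both. Of 5 xenobiotic P450 genes at this expression, CYP1A1, the dioxin-inducible enzyme gene, fell by 1.47 ± 0.16 in Hep3B and by 1.48 ± 0.15 in Huh7 in the authors' deposited tables. In the BCL2 family of apoptosis regulators, BBC3, which encodes the killer protein PUMA, was called higher in both (0.75 and 0.88). BMF, another killer of the family, was at -0.08 ± 0.11 in Hep3B and rose by 1.23 ± 0.21 in Huh7 in the authors' deposited tables (difference -1.31, adjusted p = 2.75e-06 by the approximate test). BCL2L1, a survival gene of the family, fell in Hep3B (-0.89) and was not called in Huh7 (-0.17) in the authors' deposited tables, a difference that passed the test.

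The remaining lists were mixed. Over all genes, 23.1% were called higher and 28.0% lower in Hep3B, and 13.5% and 17.4% in Huh7. Of 18 targets of NRF2, the factor of the oxidative stress response, 8 were called higher and 3 lower in Hep3B, and 5 higher and 1 lower in Huh7, in the authors' deposited tables. GCLM, for glutathione synthesis, stood at 1.08 and 0.16, and OSGIN1 at 1.61 and 0.41, and both were among the 6 genes with the higher value in Hep3B by the test. The 2 with the lower value included PGD, a gene of the pentose phosphate pathway, at -0.13 and 0.28 in the authors' deposited tables. Of 17 hypoxia genes, 5 were called higher and 6 lower in Hep3B, and 1 higher and 6 lower in Huh7, in the authors' deposited tables, and the median was 0.02 in Hep3B and -0.17 in Huh7. HK2, a hexokinase gene, fell in both, at -0.88 and -0.79. In the test of the difference 6 of the 17 had the higher value in Hep3B and 0 the lower (4 and 0 after scaling), among them NDRG1 at 1.45 and 0.63 and VEGFA, the angiogenic factor, at 1.09 and 0.33 in the authors' deposited tables. Of 13 targets of the growth regulator YAP, 8 were called higher and 1 lower in Hep3B, and 2 higher and 1 lower in Huh7, with ANKRD1 at 1.42 and 0.35 in the authors' deposited tables. Among 15 clock genes, 6 were called higher and 1 lower in Hep3B, and 1 higher and 3 lower in Huh7. PER2 was called in opposite directions, at 0.64 and -0.48, and DBP, a clock output factor, stood at 1.08 and 0.63 with a call in Hep3B alone in the authors' deposited tables. In the lysosome and autophagy list, MAP1LC3B, an autophagosome protein gene, was called higher in both, at 0.95 and 0.41, and 7 of 23 were called higher and 5 lower in Hep3B, and 5 higher and 1 lower in Huh7, in the authors' deposited tables. Calls there, 12 of 23 and 6 of 23, stand beside 51.1% and 30.9% of all genes. Of 9 keratin and epithelial genes, 4 were called higher in each line, and 2 lower in Hep3B and 0 in Huh7, with CDH1, the E-cadherin gene, at 0.70 and 1.09 and KRT80 at 2.49 and 0.24 in the authors' deposited tables. Of 15 housekeeping genes, used as references, 2 were called higher and 9 lower in Hep3B, and 0 higher and 4 lower in Huh7. Their calls in either direction stand beside 51.1% and 30.9% of all genes. GAPDH stood at -0.50 and -0.31 and ACTB at 0.13 and 0.01 in the authors' deposited tables.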

How the data were processed

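The values analysed were 2 of the authors' 6 deposited tables of edgeR comparisons, and the other 4 were set beside them. Per the file headers, each table holds for 32321 transcripts a mean log2 CPM (counts scaled to a common library total), a log2 fold change of drug over DMSO, a p-value and an FDR. Builds hg19 and GRCh37 and the tool edgeR, without its version, come from the submitters' processing notes. Aligner, read counting, normalization and type of edgeR test: not given in the sources used here. The tables were each made by the authors as a separate comparison. Counts of single libraries were not used, so the depth per library is unknown and no count test was run, although the design allowed for one. The authors' deposited log2 fold changes and p-values were used as they stand. The deposited FDR was the Benjamini-Hochberg adjustment of the deposited p-values across the whole table, to within 1e-09.

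Genes were called at an FDR under 0.05. The SE of a fold change was its size over the normal score of its p-value, with the median SE among genes of like expression (20 bins) standing in where p was above 0.5 and serving as the lower limit elsewhere. It is approximate. The 34 gene lists, the members and the rule for named genes were chosen with earlier results of these data known. The rule took the 10 largest in each direction in both tables and by the difference, 6 each way with opposite calls, 4 by mean change and 2 by difference in each list, and a fixed set of genes. Some genes that the rule takes are counted but not reported by name. Other list members, named as exceptions or to spell out a small count, were chosen after their values were seen. Lists were described by counts and medians, with no set test. Of 690 list entries 6 were matched by a RefSeq synonym and 2 were not matched. Without stated strand or multi-read handling, genes that overlap others or have near-identical copies are uncertain. Fold changes were set against transcript GC content over 11061 genes, where Spearman's rho was 0.02 in Hep3B, 0.17 in Huh7 and -0.12 for the difference. Promoter letters came from RefSeq windows on GRCh38.p14, and no coordinate was converted. Python 3.11.15, pandas 2.3.3, numpy 2.4.6, scipy 1.17.1, statsmodels 0.14.6 and matplotlib 3.10.9 were used. The alternatives were a stricter FDR, a minimum fold, other expression limits, centring, scaling and other handling of the SE and of the adjustment.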

Additional observations from a re-analysis of the deposited data

Results flagged for a closer look

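Genes called in opposite directions with the largest changes on both sides are given here because their response differed between the groups by the approximate test of the difference. Opposite calls fix the outcome of that test, which 79 of 79 and 104 of 104 such genes passed, so the differences (Hep3B minus Huh7, log2) are a description and no p-value is given. Higher in Hep3B and lower in Huh7 were RUNX1, a transcription factor gene of blood development (difference 2.41), C2orf55 (1.98), NDRG4 (1.80), C10orf114 (1.40) and the amino acid transporter gene SLC38A4 (1.33). Lower in Hep3B and higher in Huh7 were CXCL10 (difference -3.66), RFX6, a transcription factor gene of endocrine pancreas (-2.88), RND1, a small GTPase gene (-1.89), SPTLC3, a subunit gene of serine palmitoyltransferase (-1.77), LSS (-1.65) and CFI, the gene of complement factor I (-1.58). For 5 of them the mean was under 1 log2 CPM in 1 line, so they met the expression limit through the other: RUNX1 at 0.34 in Hep3B, and C2orf55 at 0.47, C10orf114 at 0.55, CXCL10 at 0.30 and RFX6 at 0.86 in Huh7, in the authors' deposited tables.

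With both drugs, RUNX1 was called in opposite directions in the authors' deposited tables, at 2.98 in Hep3B and -0.64 in Huh7, and so was RND1, at -1.04 and 2.10. SPTLC3 was called lower in both lines, at -2.00 and -1.21 in the authors' deposited tables. CXCL10 stood at -4.47 in Hep3B and at -0.63 in Huh7, with no call in Huh7, in the authors' deposited tables. No test of the difference was run for the tables with both drugs.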

How the results depend on the processing

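At an FDR under 0.01, genes lower in Huh7 numbered 1203, higher in both 601, lower in both 691, and opposite calls 32 (higher in Hep3B) and 49. At that FDR 20 counts within lists moved by over 1.5 times and 116 did not; the movers included genes lower in Huh7 in the replication list (11) and the glycolysis list (7). With a fold of at least 1.5 required as well as an FDR under 0.05, the counts were 1128 higher and 1008 lower in Hep3B, 560 and 300 in Huh7, 323 and 164 in both, and 5 and 11 in opposite directions. Differing genes at an adjusted p under 0.01 numbered 566 above and 573 below, and after scaling of the Hep3B changes 623 were above. Scaling, which multiplies every Hep3B change by 0.52, turned the sign of the difference for 19 of 66 named genes. Of these, 9 were called before or after it: AKNA (-0.12), ASNS (-0.16), CGA (1.19), CHAC1 (-0.23), DDIT3 (-0.0649), EGR1 (1.13), HAL (1.37), LYZ (0.78) and SLC6A14 (0.55). All but ASNS and DDIT3 are among the genes ranked by the smaller change. That ranking selects for a large Huh7 change, so their scaled values are not read as results. Counts of differing genes within lists moved by over 1.5 times at 31 of 68 under scaling. Of the named genes, 12 kept the sign and lost the call when scaled, among them TRIB3, ATF3, CCND1, CXCL5 and AFP. Other expression limits, centring, adjustment over representative transcripts and an SE without its lower limit kept the counts over all genes within 1.5 times. Without that lower limit 4 counts within lists (clock, urea cycle, YAP and housekeeping) moved from 0 or 1 to 1 or 2, and 64 stayed. Centring turned the sign of 0 called genes in either table. No paired analysis was possible because the tables hold no values of single libraries. For the same reason the edgeR and DESeq2 count fits, leaving out single libraries and the replicate block were not run. Depth, outlying libraries and batches could not be examined, and weakly expressed genes carry the widest errors.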
